A study of Macaca mulatta with 13 samples.

Results

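The miR-15 and miR-16 family of microRNAs (miRNAs) was described in small RNA libraries from rhesus monkey biopsies of a thigh muscle, the vastus lateralis. Mature miRNAs were taken by name, as either arm (5p or 3p) of the 7 stems miR-15a, miR-15b, miR-16, miR-195, miR-497, miR-424 and miR-503, with the highest-total row kept where a name was listed more than once. This gave 15 names of 909 named miRNAs. Of these, 13 had at least 1 count, 9 passed the filter on low counts, and miR-15a-3p and miR-497-3p had 0 counts in every library. The samples were 8 biopsies from animals on caloric restriction (CR) and 5 from animals on a control diet (Control). The labels name no strain, age or sex, and do not state whether every biopsy is from its own animal, so that p-values cover the spread between biopsies only. The series is titled for the prevention by CR of sarcopenia, which is muscle loss in ageing.

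The 5p arms of these stems share, or nearly share, a seed, the short 5′ stretch that pairs with target transcripts. These 5p arms are known for repressing transcripts that carry cells into division. Among them are those of D- and E-type cyclins, cyclin-dependent kinases and the phosphatase CDC25A, and the survival factor BCL2. The 3p arms, of which miR-16-2-3p, miR-195-3p, miR-15b-3p and miR-424-3p were tested, were included by stem name. The shared seed and these targets do not describe the 3p arms. In mouse muscle, miR-195 and miR-497 are known to promote quiescence of satellite cells, the muscle stem cells, and miR-503 with the mouse counterpart of miR-424 to promote exit from the cell cycle during differentiation. The genes lie in pairs. In the T2T-MMU8v2.0 annotation from RefSeq, MIR15B and MIR16-2 lie side by side within SMC4, which encodes a condensin subunit. MIR15A neighbours MIR16-1, and MIR195 neighbours MIR497, each pair within a long noncoding RNA gene. MIR503 and MIR424 are also neighbours, next to MIR542. The mature miR-16-5p can come from either MIR16-1 or MIR16-2, while miR-16-2-3p is named for MIR16-2.

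Libraries held 1154326 to 5392611 counts in named miRNAs, and CR replicate 1 was the smallest. Levels are CPM, counts scaled to a common library size with TMM factors from 0.624 to 1.76. A count of 0 allows up to 3 counts, which is 0.556 to 2.60 CPM before that scaling. Markers of skeletal muscle were present in all libraries, with 12 of 13 listed names detected. Control replicate 4 stood apart, with the highest summed levels of fibroblast markers (2048 CPM, against 487 to 1636 in CR) and endothelial markers (1080 CPM, against 455 to 857 in CR) and the lowest of skeletal muscle markers. How the authors' counting divided reads between miRNAs that differ by few bases is not given in the sources used here, so values of single members are uncertain to that extent.

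The family was a small part of the muscle's miRNA reads and was dominated by miR-16-5p. Together its members took 0.119% ± 0.0419 of miRNA counts in CR (SD, n = 8) and 0.151% ± 0.0427 in Control (SD, n = 5). The lowest share was 0.0432% in CR replicate 8 (95% exact binomial interval 0.0411 to 0.0453%) and the highest 0.21% in Control replicate 5 (0.205 to 0.216%). Such intervals hold the counting error of reads alone and not the spread between biopsies. They are too narrow to the extent that reads were copied by PCR, because copies do not stand for separate molecules. As miR-486 took the largest part of each library, the share was also computed without it: out of the counts without it the family held 0.291% ± 0.0817 in CR and 0.330% ± 0.0755 in Control. Of the family's own counts, miR-16-5p took 74.8% ± 2.90 in CR and 73.6% ± 4.62 in Control, and miR-15b-5p took 11.9% ± 3.57 in CR and 11.3% ± 2.52 in Control. The 5p arms together took 94.7% ± 0.712 in CR and 94.6% ± 0.771 in Control.

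The order of levels was clear at the top and unresolved in the middle. Over the 13 libraries miR-16-5p averaged 964 ± 343 CPM (SD) and miR-15b-5p 153 ± 69.1 CPM, and each stood above the next in all 13 libraries. Then came miR-15a-5p at 42.8 ± 14.7 CPM, miR-195-5p at 37.1 ± 14.99, miR-16-2-3p at 28.4 ± 17.9, miR-195-3p at 26.8 ± 4.89 and miR-497-5p at 26.0 ± 10.2 CPM. Neighbours among these 5 changed places between libraries, the upper one being higher in 6 to 9 of 13, so their order was not resolved beyond the spread. Below them, miR-15b-3p averaged 7.45 ± 3.71 CPM and miR-424-3p 5.20 ± 2.78 CPM, with miR-15b-3p the higher in 8 of 13 libraries. Levels are of reads, which adapter ligation can shift between miRNAs.

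**Figure D1:**
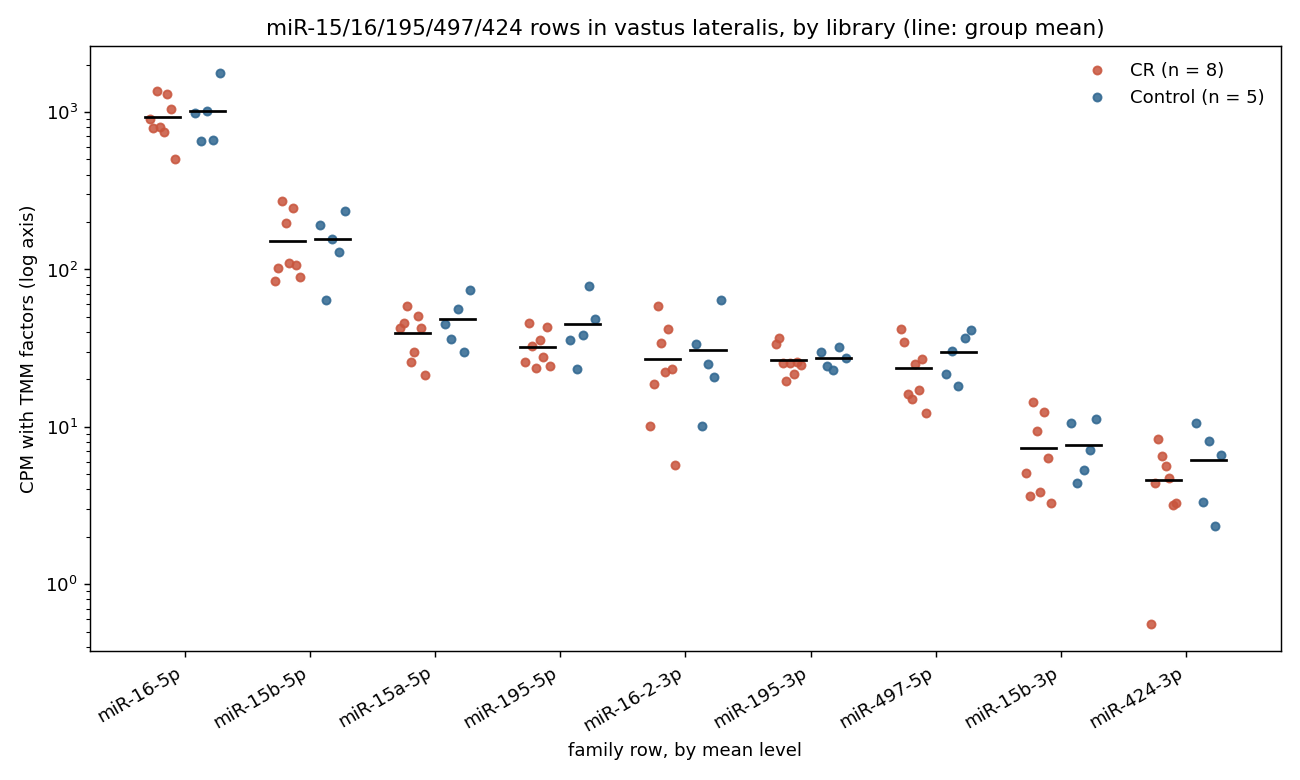
Level of each of the 9 tested family miRNAs in every library (CPM with TMM factors, log axis), with CR (8 libraries) left of Control (5 libraries) and a line at each group's mean. The groups overlap for every miRNA, and miR-16-5p lies above all others in each library.

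No member of the family differed between CR and Control muscle past the threshold. For miR-16-5p, the most abundant member, CR libraries ran from 506 CPM (replicate 8) over a median of 854 to 1358 CPM (replicate 3), and Control libraries stood at 986, 652, 1012, 664 and 1762 CPM for replicates 1 to 5. One Control library, replicate 5, lay above every other library, and the groups overlapped. For miR-15b-5p, its neighbour in SMC4 on the MIR16-2 side, CR libraries ran from 84.3 over a median of 108 to 274 CPM, and Control libraries stood at 193, 64.2, 155, 130 and 235 CPM. Both groups spanned a wide range here, and the lowest library was Control replicate 2. For miR-15a-5p, known from the locus often deleted in human chronic lymphocytic leukaemia, CR libraries ran from 21.3 over a median of 42.3 to 58.2 CPM, and Control libraries stood at 44.7, 36.1, 55.7, 29.8 and 74.1 CPM. As with miR-16-5p, CR replicate 8 was the lowest and Control replicate 5 the highest.

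On the log2 scale the fold changes, CR over Control, were -0.12 ± 0.28 (SE) for miR-16-5p, -0.039 ± 0.35 for miR-15b-5p and -0.28 ± 0.29 for miR-15a-5p. EdgeR's quasi-likelihood test gave each an adjusted p of 0.985. The 95% intervals of the fold, CR over Control, were 0.615 to 1.37 for miR-16-5p, 0.585 to 1.62 for miR-15b-5p and 0.541 to 1.25 for miR-15a-5p. Without Control replicate 5 the values of miR-16-5p and miR-15b-5p turned to 0.13 and 0.12, and that of miR-15a-5p was -0.11. The 3p arm from MIR16-2 had a coefficient of variation of 63.1% over the 13 libraries, and miR-16-5p one of 35.6%. In CR, miR-16-2-3p ran from 5.74 over a median of 22.8 to 58.7 CPM, and in Control it stood at 33.8, 10.1, 25.2, 20.7 and 64.1 CPM, an 11.2-fold range whose lowest library was in CR and whose highest was in Control. Its log2 fold change was -0.18 ± 0.48 (0.23 without Control replicate 5), and that of miR-15b-3p, at 7.29 ± 4.26 CPM in CR (SD, n = 8) and 7.71 ± 3.06 CPM in Control (SD, n = 5), was -0.069 ± 0.41 (SE).

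The members of the MIR195 and MIR497 pair, tied to quiescence of satellite cells in mice, held the lowest unadjusted p of the family, which also missed the threshold. For miR-195-5p, CR libraries ran from 23.7 over a median of 30.3 to 45.9 CPM, and Control libraries stood at 35.7, 23.2, 38.1, 78.0 and 48.7 CPM. Of the CR libraries 7 of 8 lay below the Control mean, a mean raised by Control replicate 4, and the groups overlapped. The log2 fold change was -0.47 ± 0.29 (SE), the unadjusted p 0.12 and edgeR's adjusted p 0.985, with a 95% interval of the fold of 0.476 to 1.098. Without Control replicate 4 it was -0.16. Without Control replicate 2, the lowest of the Control libraries, miR-195-5p passed an unadjusted p of 0.05, but not the adjusted threshold.

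The opposite arm, miR-195-3p, was the steadiest member, at 26.6 ± 5.73 CPM in CR (SD, n = 8) and 27.3 ± 3.73 CPM in Control (SD, n = 5), with only a 1.88-fold range over the 13 libraries. Its log2 fold change was -0.039 ± 0.24 (SE). For miR-497-5p, CR libraries ran from 12.3 over a median of 21.0 to 41.6 CPM, and Control libraries stood at 21.8, 30.4, 18.2, 36.9 and 41.2 CPM. Here 4 of 8 CR libraries lay below the lowest Control library, while CR replicate 1 was the highest of all. The log2 fold change of miR-497-5p was -0.33 ± 0.32 (SE) and its 95% interval of the fold 0.495 to 1.27. Leaving out CR replicate 1 gave -0.54, and leaving out Control replicate 4 gave -0.24.

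The stems of the MIR424 and MIR503 pair had the fewest counts of the family. The named 5p arm, miR-424-5p, had 4 counts over all CR libraries and 12 over all Control libraries, while miR-424-3p had 123 and 105 counts in CR and Control. The 3p arm was the larger in 13 of 13 libraries. Its level ran from 0.562 over a median of 4.54 to 8.32 CPM in CR and stood at 10.5, 3.35, 8.12, 2.33 and 6.66 CPM in Control, with a log2 fold change of -0.40 ± 0.46 (SE). Leaving out Control replicate 1 gave -0.14, and leaving out Control replicate 4 gave -0.62. The lowest library was CR replicate 1, the smallest, where the level rests on 1 count. For miR-503, which represses Cdc25a in mouse muscle cells, the 5p arm had 2 counts in CR and 4 in Control, and the 3p arm 7 counts in CR and 8 in Control. Neither arm of miR-503 was tested, and a difference in them was not detectable at this depth. The last detected name, miR-16-1-3p, had 1 count in 1 Control library.

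Of the 9 tested members 0 passed edgeR's quasi-likelihood test at an adjusted p of 0.05, against 0% of all 263 miRNAs tested. At an unadjusted p of 0.05 the family also had 0 members, against 2.66% of all miRNAs, and both counts for the family were 0 with DESeq2 and limma-voom. All 9 fitted values were lower in CR, and the median of their log2 fold changes was -0.18, whereas 48.3% of all tested miRNAs had a lower value and their median was 0.010. The members share libraries, clusters and hairpins and are not independent. Without Control replicate 5, 4 of the 9 had a higher value in CR and the median was -0.11. For 5 of the 9 members the 95% interval held no change as large as 2-fold, against 58.6% of all miRNAs. With library totals in place of TMM factors the median of all miRNAs was -0.26, and the family's median lay 0.18 below it, against 0.20 below with TMM factors.

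**Figure D2:**
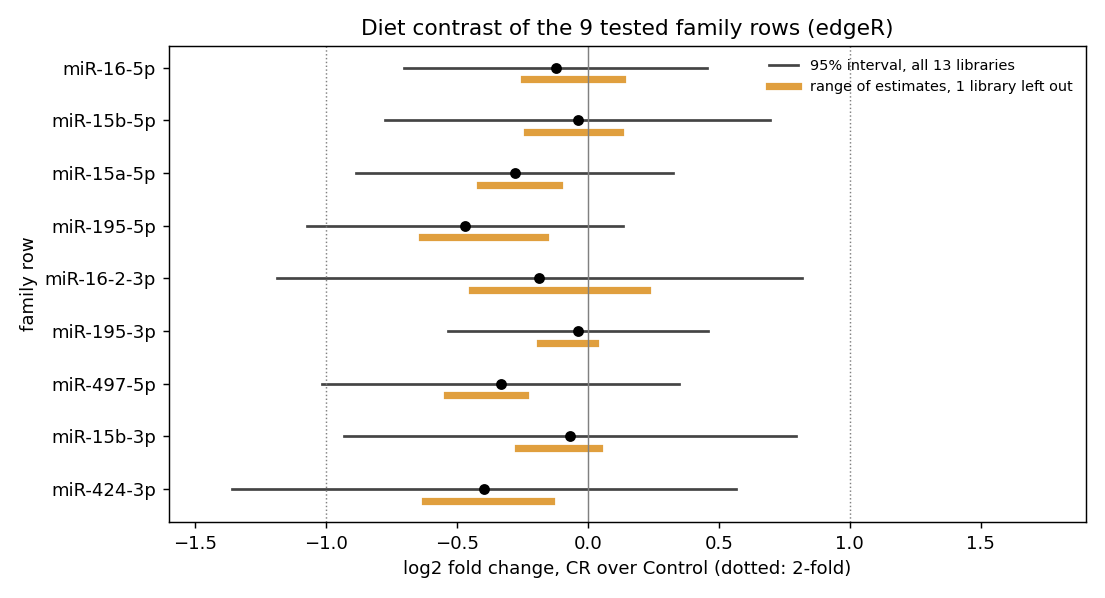
Log2 fold change of each tested family miRNA, CR over Control (point), with its 95% interval over 13 libraries (dark line) and the range of estimates when 1 library is left out (orange). All 9 points lie below 0 and every interval includes 0; the orange range crosses 0 for miR-16-5p, miR-15b-5p, miR-16-2-3p, miR-195-3p and miR-15b-3p.

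Ratios of counts within a library, which need no scaling, were compared for arms of one hairpin and for neighbouring genes wherever both miRNAs had at least 10 counts in every library. Most stems were strongly one-sided: the 5p arm held 100% of the arm counts of miR-15a and miR-497 and 95.3% of those of miR-15b. For miR-16 it held 97.2%, but there miR-16-5p from either of 2 genes is set against miR-16-2-3p from MIR16-2 alone. The ratio of these 2 names, given below, mixes genes in the same way. For miR-195 the share of the 5p arm was 60.7%, with the 5p arm the larger in 10 of 13 libraries, and for miR-424 it was 6.56%. The ratio of miR-195-5p to miR-195-3p ran from 0.767 over a median of 1.27 to 1.65 in CR and was 1.20, 0.957, 1.66, 2.44 and 1.77 in Control. The largest value belonged to Control replicate 4. The mean log2 ratio was 0.27 ± 0.33 in CR (SD, n = 8) and 0.61 ± 0.52 in Control (SD, n = 5), with 7 of 8 CR libraries below the Control mean and a difference of -0.34 (exact permutation test, two-sided, p = 0.183; adjusted over the 5 ratios computed, 0.456). With Control replicate 4 left out the difference was -0.17, and with Control replicate 2 left out -0.51.

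Ratios between neighbouring genes also overlapped between the diets. The mean log2 ratio of miR-15a-5p to miR-16-5p was -4.56 ± 0.24 in CR and -4.37 ± 0.18 in Control (SD), and 7 of 8 CR libraries lay below the Control mean. For the difference of -0.19 the exact permutation test, two-sided, gave p = 0.145 (adjusted, 0.456). The ratio of miR-195-5p to miR-497-5p ran from 0.622 over a median of 1.57 to 2.03 in CR and was 1.64, 0.763, 2.09, 2.12 and 1.18 in Control. For this pair, for miR-15b-5p to miR-16-5p and for miR-16-5p to miR-16-2-3p, the differences in mean log2 ratio, CR minus Control, were -0.013, 0.024 and 0.16, with an adjusted exact permutation p of 0.970 each. The ratio of miR-16-5p to miR-16-2-3p ran from 23.1 (CR replicate 3) to 89.7 (CR replicate 1, where miR-16-2-3p had 18 counts), so both ends of its range lay within CR.

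**Figure D3:**
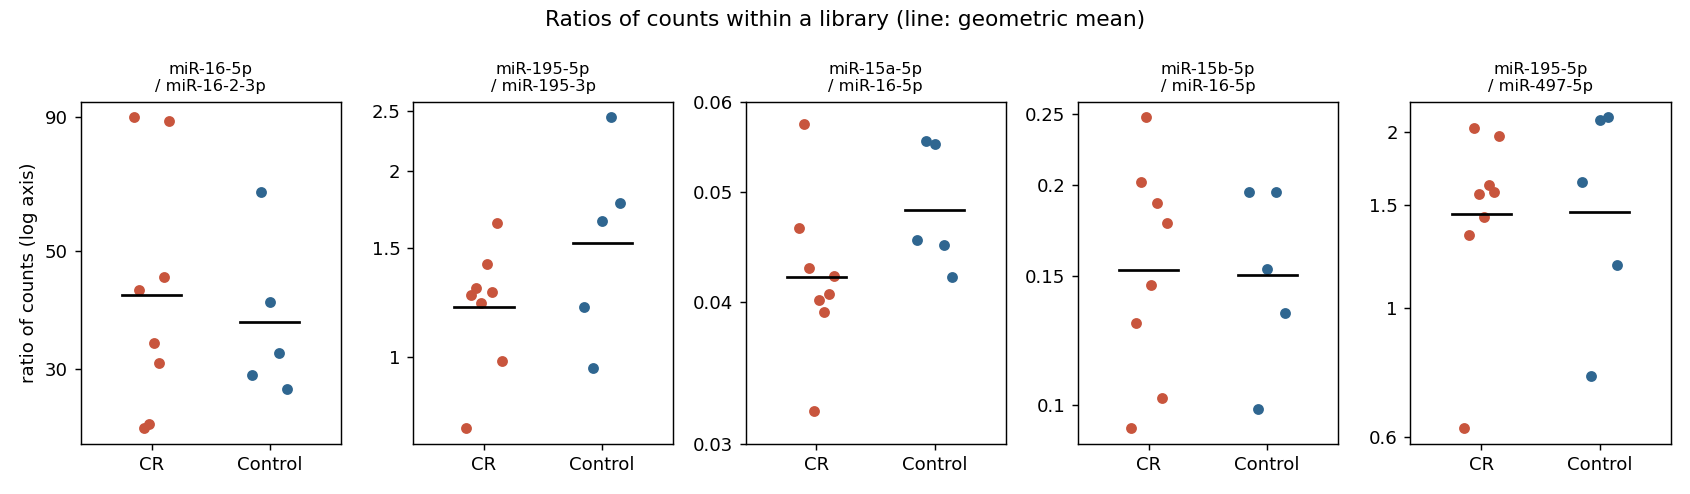
Ratio of counts within each library for the 5 pairs compared (log axes), with CR left of Control and a line at each group's geometric mean. The groups overlap in every panel; for miR-195-5p to miR-195-3p, Control replicate 4 is the highest at 2.44.

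Some members kept a steadier ratio to each other across libraries than others did. As a measure of how steadily a pair kept its ratio, the SD over 13 libraries of the difference in log2 CPM was used, where a small SD means a fixed proportion. It was smallest for miR-16-5p with miR-15a-5p (0.23) and for the arms of miR-15b (0.31). It was 0.43 for the arms of miR-195 and for miR-195-3p with miR-497-5p, and 0.48 for miR-15b-5p with miR-16-2-3p, both from within SMC4. It was larger at 1.01 for miR-15b-5p with miR-497-5p and 1.16 for miR-16-2-3p with miR-497-5p. The largest value was 1.25, for miR-497-5p with miR-424-3p. That value includes counting error, as miR-424-3p had 1 to 29 counts in a library. It had 1 count in CR replicate 1, where miR-497-5p was highest. Neighbouring genes were not always the steadiest: miR-195-5p with miR-497-5p gave 0.53, while miR-195-3p with miR-15a-5p, from different loci, gave 0.52. A member that varies little can give a small SD without moving with its partner. As miR-195-3p had only a 1.88-fold range, its 0.52 does not show that it moved with miR-15a-5p. These values describe the 13 libraries, which share one scaling factor each, and carry no test.

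**Figure D4:**
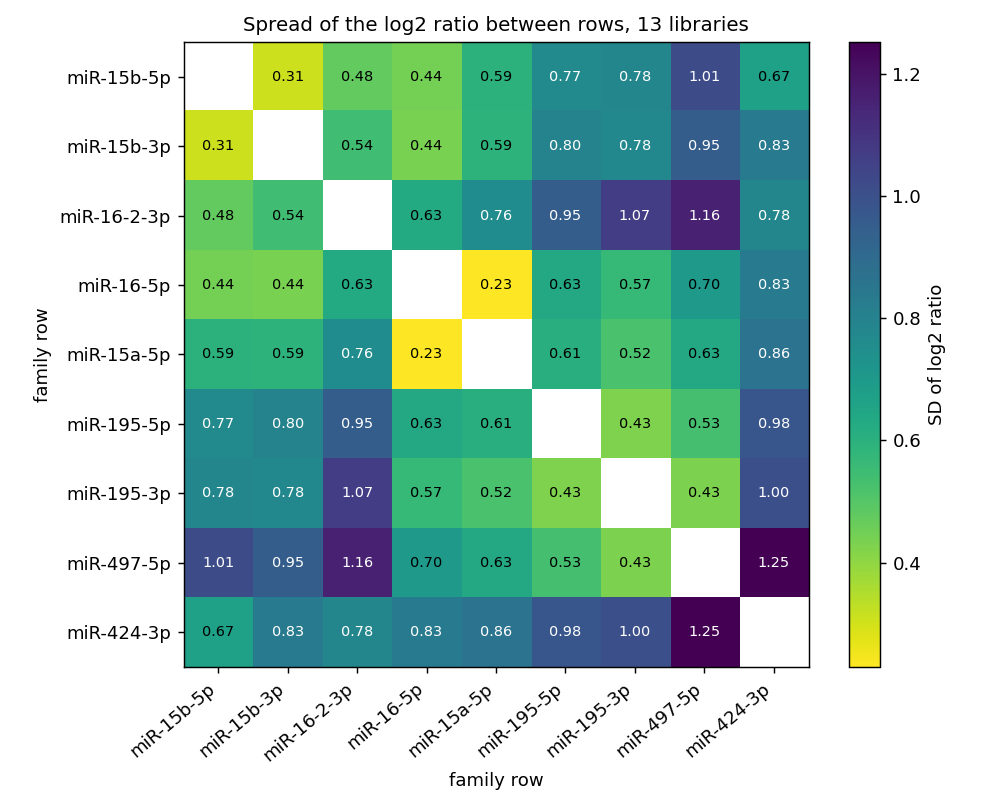
SD over 13 libraries of the log2 ratio between each pair of tested family miRNAs (colour and printed value; yellow is a steady ratio). The steadiest pair is miR-16-5p with miR-15a-5p (0.23) and the least steady miR-497-5p with miR-424-3p (1.25). Values with miR-424-3p include counting error, as it had 1 to 29 counts in a library.

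Outside the family, the miRNAs in the steadiest ratio to the 3 most abundant members were sought among 97 with a mean of at least 100 CPM, by the same SD. For miR-16-5p they were miR-106b-3p (0.29), miR-126 (0.33) and miR-93-5p (0.34), where the median over the 97 was 0.64. For miR-15b-5p they were miR-106b-3p (0.28), miR-25 (0.34) and miR-93-5p (0.37), with a median of 0.79. These 3 partners are products of one cluster, miR-106b/25, which in humans lies within the replication gene MCM7. For miR-15a-5p they were miR-103-3p (0.34), miR-126 (0.37) and miR-30b-5p (0.38), with a median of 0.67. Of the partners named, miR-126 is also in the list of endothelial markers used below.

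The levels of miR-15b-5p, miR-15b-3p and miR-16-2-3p, encoded within SMC4, moved with red blood cell markers across libraries of both diets. Less closely, so did miR-16-5p, which can come from either of 2 genes. Red blood cell markers, of which miR-451 makes up 99.8%, ran from 135 over a median of 525 to 1510 CPM in CR and from 138 over a median of 745 to 1386 CPM in Control. Its companion miR-144 was detected at a trace. Over the 13 libraries the log2 level of miR-16-2-3p correlated with the markers' summed log2 CPM with Pearson's r = 0.95 and Spearman's rho = 0.94 (permutation p 1e-05, the smallest that the permutations can give, and 3e-05; adjusted over 54 correlations, 0.00027 and 0.00054). Without the 2 libraries farthest from the median, CR replicate 8 and Control replicate 2, r was 0.92, and within the 8 CR libraries it was 0.96. For miR-15b-5p r was 0.93 and rho 0.93 (permutation p 1e-05 and 3e-05; adjusted 0.00027 and 0.00054), with 0.93 without those 2 libraries and 0.90 within CR. For miR-15b-3p r was 0.89 and rho 0.94 (permutation p 0.0001 and 3e-05; adjusted 0.00135 and 0.00054), with 0.90 without those 2 libraries and 0.91 within CR. For miR-16-5p r was 0.77 and rho 0.78 (permutation p 0.00191 and 0.00251; adjusted 0.0172 and 0.0194), and r was 0.61 without those 2 libraries and 0.82 within CR. The ratio of miR-16-5p was steadier to miR-15a-5p (SD 0.23) than to miR-15b-5p (0.44) or miR-16-2-3p (0.63). Which gene its reads came from was not tested.

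The same comparison gave r = 0.54 for miR-15a-5p and 0.57 for miR-424-3p, with an adjusted permutation p of 0.171 and 0.162, and no value past the threshold for miR-195-5p (0.37), miR-195-3p (-0.22) or miR-497-5p (-0.12). Counted without any scaling, miR-451 had 13.6 to 36.0 times the reads of miR-16-2-3p in a library, while its ratio to miR-195-3p ran from 5.50 to 69.3. Red blood cell content of the biopsies was not measured otherwise, and its part in the family's levels was not tested. In bulk tissue, fewer cells of a type and less RNA per cell cannot be told apart.

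The members from the MIR195 and MIR497 pair moved with other markers, and which lists these were depended on the scaling of the libraries. For miR-195-5p and the endothelial markers (455 to 857 CPM in CR and 545 to 1080 CPM in Control) r with TMM factors was 0.92 and rho 0.80 (permutation p 6e-05 and 0.00187; adjusted 0.00108 and 0.0168). It was 0.83 without CR replicate 8 and Control replicate 4, the libraries farthest from the median, and 0.91 within CR. That list holds miR-126, miR-130a, miR-221, miR-222 and miR-218. Like miR-195-5p, miR-222-3p, miR-221-3p and miR-130a-3p were highest in Control replicate 4 (469, 326 and 134 CPM). By contrast, miR-126 was highest in Control replicate 5 (219 CPM, against 143 CPM in replicate 4). In Control replicate 5 miR-195-5p stood at 48.7 CPM, and in replicate 4 at 78.0 CPM. For miR-16-5p and miR-15a-5p, steady in ratio to miR-126, r with the list was 0.024 and 0.18. For miR-195-3p and the fibroblast markers (487 to 1636 CPM in CR and 718 to 2048 CPM in Control) r was 0.75 and rho 0.70 (permutation p 0.00339 and 0.00931; adjusted 0.0262 and 0.0628, the rank value missing the threshold), with r at 0.69 without its 2 farthest libraries and 0.91 within CR. For miR-497-5p and the skeletal muscle markers, of which miR-486-5p makes up 92.2%, r was -0.84 and rho -0.84 (permutation p 0.00034 and 0.00068; adjusted 0.00367 and 0.00918), with r at -0.81 without its 2 farthest libraries and -0.98 within CR. Those muscle markers ran from 343288 over a median of 724376 to 1169884 CPM in CR and from 254619 over a median of 614013 to 861120 CPM in Control. Single markers of this list differed. In CR replicate 1, where miR-497-5p was highest (41.6 CPM), miR-499-5p and miR-208b-3p were also highest (31.5 and 53.4 CPM). In CR replicate 8, where miR-497-5p was lowest (12.3 CPM), they stood at 2.05 and 0.820 CPM. In Control replicate 4, however, they were lowest (0.367 and 0.245 CPM), with miR-497-5p at 36.9 CPM. Since miR-486 sets much of each library's total, its level and that of any other miRNA are tied in part by construction.

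Of the 54 correlations, 9 members against 6 marker lists, 7 passed an adjusted permutation p of 0.05: 4 with red blood cell markers and 1 each with endothelial, fibroblast and skeletal muscle markers. With leukocyte markers, of which miR-150-5p makes up 73.0%, and with smooth muscle markers, of which miR-143-3p makes up 97.5%, 0 members passed by Pearson's r. With library totals in place of TMM factors 23 of the 54 passed, among them those 7, and 20 of the 54 changed sign. The red blood cell count was then still 4, whereas miR-195-5p, miR-195-3p and miR-497-5p each passed with all 5 other lists. The lowest r of these 3 members was then 0.69 with smooth muscle markers (miR-195-3p) and 0.72 with leukocyte markers (miR-497-5p, against -0.027 with TMM factors), and with skeletal muscle markers their r was -0.93, -0.93 and -0.92. By rank and with TMM factors, miR-195-5p passed with smooth muscle markers (rho = 0.80, adjusted permutation p 0.0168; r = 0.68, adjusted 0.0626). Leukocyte markers summed to 339 to 815 CPM in CR and 381 to 735 CPM in Control, and smooth muscle markers to 13396 to 45629 CPM in CR and 10987 to 42302 CPM in Control. Single leukocyte markers differed. The lowest libraries of miR-142-5p were Control replicate 2, CR replicate 1 and CR replicate 8 (2.32, 2.81 and 2.87 CPM). Its highest was CR replicate 3 (37.4 CPM). The same libraries were the extremes of miR-15b-5p (64.2, 84.3, 89.8 and 274 CPM). Another leukocyte marker, miR-223, stood at 1.80, 0.562, 1.23 and 6.47 CPM in these libraries. It was also low in CR replicate 4 (1.43 CPM), where miR-15b-5p stood at 198 CPM. Its highest level was in Control replicate 4 (11.6 CPM), where miR-15b-5p stood at 130 CPM. By contrast, miR-150-5p was highest in CR replicate 2 (677 CPM) and miR-342-3p in CR replicate 8 (165 CPM). Correlations with single markers of a list were not computed. Every listed name with a row of its own was detected for red blood cells (2 of 2), fibroblasts (4 of 4), leukocytes (8 of 8) and smooth muscle (4 of 4). For miR-199b, also on the fibroblast list, no row was among the names used. The most abundant marker was miR-199a-3p for fibroblasts (58.0% of the list) and miR-222-3p for endothelium (38.3%). Of the endothelial names 9 of 10 were detected, with miR-218-1-3p at 0, and of the skeletal muscle names miR-208b-5p was at 0. The cell types were chosen for their presence in a biopsy, and no marker is restricted to 1 cell type. Which cells held the family's RNA was not tested.

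**Figure D5:**
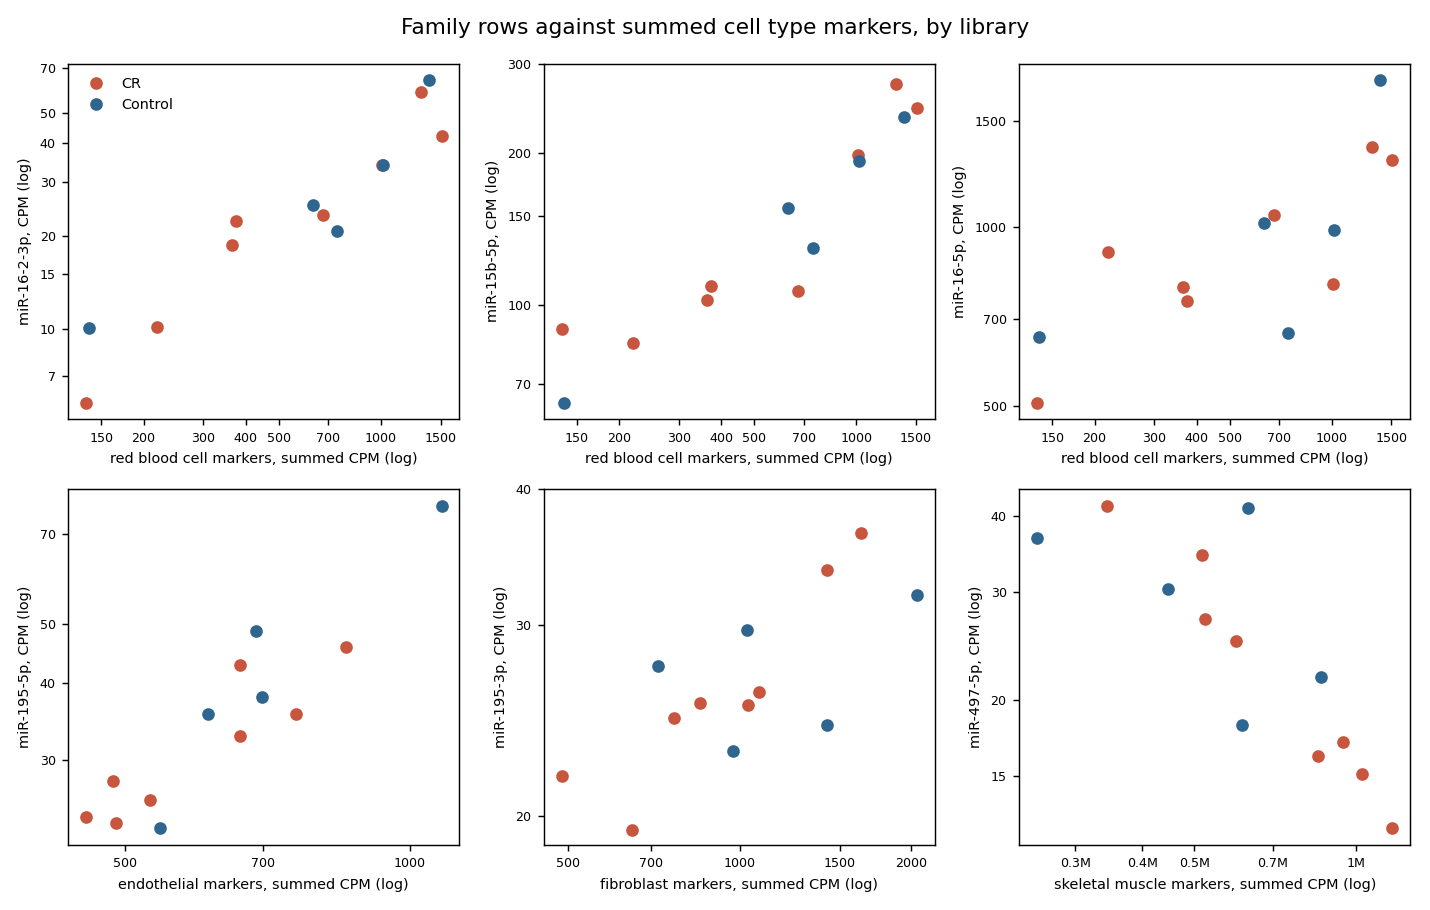
Level of 6 family miRNAs (CPM, log axis) against the summed CPM of a cell type marker list (log axis), 1 point per library, CR and Control coloured. Pearson's r is 0.95, 0.93 and 0.77 in the top row, and 0.92, 0.75 and -0.84 in the bottom row, with libraries of both diets spread along each relation.

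Relatives of the family and other miRNAs of the cell cycle were read from the same fit. In a wider group whose members share part of the seed, miR-103-3p stood at 480 ± 113 CPM in CR (SD, n = 8) and 544 ± 140 CPM in Control (SD, n = 5) with a log2 fold change of -0.18 ± 0.23 (SE). Its paralogue miR-107-3p stood at 132 ± 49.5 CPM in CR and 135 ± 30.7 CPM in Control with -0.035 ± 0.28, so that 0 of 2 tested relatives passed. The genomic neighbours of miR-424 and miR-503, namely miR-450a, miR-450b and miR-542, had 17 counts over 7 names and all libraries, and none was tested. Of miRNAs known for restraining the cell cycle (let-7a to let-7c and the miR-26, miR-29 and miR-34 miRNAs), 0 of 12 tested passed, 8 being higher and 4 lower in CR (median of the log2 fold changes 0.11). Examples are let-7a-5p, a repressor of growth pathways (0.32 ± 0.20), and miR-34a-5p, a target of p53 (0.097 ± 0.42). Of those known for promoting it (miR-17/92 and miR-106b/25 members, miR-21, miR-221 and miR-222), 0 of 13 passed, with 3 higher and 10 lower and a median of -0.068. Examples are miR-17-5p, which represses inhibitors of the cell cycle (-0.16 ± 0.43), and miR-221-3p, which represses the inhibitor p27 (-0.19 ± 0.23). By edgeR the adjusted p was 0.985 for each of these examples. Of all 263 tested miRNAs 0% passed and 48.3% had a lower value in CR. Arms of one hairpin and products of one cluster were counted separately in these lists and are not independent. A difference between the lists was not tested.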

How the data were processed

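Per the labels' protocols, RNA of vastus lateralis biopsies came from a Trizol preparation, short RNA was cut from a gel, and Illumina's TruSeq kit for small RNA gave libraries that were read from one end. Per the submitters' processing notes the build is Mmul 8.0.1. No aligner or counter is given in the sources used here. Raw counts of reads per miRNA and library were deposited. Of 1703 rows, 702 predicted loci were left out, 67 names listed more than once kept their highest-total row (for miR-16-5p these rows differed by at most 4 counts in a library), and 3 pairs of names differing by at most 1% were merged, leaving 909 miRNAs.

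Of the 909, the 263 that passed filterByExpr were scaled (TMM), fitted and tested in R 4.3.3 with edgeR 4.0.16 (robust quasi-likelihood). Calls were made at a p of 0.05 after Benjamini-Hochberg adjustment. Log2 CPM used a prior count of 2. Ratios (counts plus 0.5) were compared by exact permutation over 1287 splits, where the smallest p is 0.000777, and correlations by 100000 permutations. DESeq2 1.42.0 and limma 3.58.1 were alternatives. Members, lists and tests were chosen with earlier results of these data known, and the correlations after values were seen. Named outside the family are the steadiest partners and members of the lists. Mature sequences were not used here.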

Additional observations from a re-analysis of the deposited data

How the results depend on the processing

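The count of miRNAs past the threshold and that of family members stayed at 0 under the alternatives run, including DESeq2, limma-voom, 3 other scalings and each library left out. At an unadjusted p of 0.05 the count over all miRNAs was 7, and 2 to 14 with 1 library left out, 12 with library totals alone, 28 with no filter on low counts, 14 with DESeq2 and 2 when a mean CPM of 10 or more was required. The family's share, CR minus Control, was -0.0319 percentage points, -0.0394 out of the counts without miR-486, and -0.0425 to -0.0170 with 1 library left out.

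Some values changed sign. With the sample number as covariate miR-195-3p was at 0.081. With 1 library left out the log2 fold changes ran from -0.24 to 0.13 for miR-16-5p, -0.23 to 0.12 for miR-15b-5p, -0.44 to 0.23 for miR-16-2-3p, -0.18 to 0.027 for miR-195-3p and -0.27 to 0.043 for miR-15b-3p. The differences in log2 ratio ran from -0.13 to 0.13 for miR-15b-5p to miR-16-5p and from -0.25 to 0.16 for miR-195-5p to miR-497-5p. The other values kept their sign, 385 of 409 comparisons with an alternative in all, counts of miRNAs past a threshold left aside; the cause of the changes was not tested.

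The labels do not say whether replicate numbers mark pairs. Same-numbered libraries showed no likeness: their deviations correlated between -0.24 and -0.047 across miRNAs. Such values cannot exclude a pairing that leaves little trace in miRNA levels. With the replicate number as a block, over the 10 libraries with shared numbers, 0 miRNAs passed, and 1 had an unadjusted p under 0.05, against 3 without the block.

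Of the correlations past the threshold, the 7 kept their sign with library totals alone, within CR and with each library left out. With library totals 23 of the 54 correlations passed. The lowest absolute values of the 7 were 0.65 (miR-16-5p, library totals) and 0.69 (miR-16-5p, without CR replicate 8). These 3 alternatives were chosen after seeing the data. Depth limits miR-424 and miR-503 most, with 1 to 29 counts of miR-424-3p in a library.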
